A study of Mus musculus with 4 samples.

Results

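Antigen presentation and B-cell identity were followed through 10 genes in RNA libraries of mouse T helper 2 (Th2) cells. The genes were taken by symbol from the deposited gene tables, 10 of 50600 genes in all. They form a class I set (H2-K1, H2-D1, B2m and Tap1), a class II set (H2-Aa, H2-Ab1, H2-Eb1 and Cd74) and a B-cell pair (Cd79a and Ighm). The class I set stood for a pathway that T cells run themselves, and the other 6 genes for a sign of other cells in the culture.

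The 4 libraries are biological replicates 1 to 4 of a single group of primary Th2 cells, CD4 T cells differentiated in culture, from mice of strain C57BL/6NJ. The file headers place them at 48 hours in a time course of Th1 and Th2 cells, and no treatment or allele is named. All 4 carry the same donor identifier (1 in the labels) but separate biosamples, with an unknown age and a sex that was not collected, so p-values measure only the spread between these samples. There was no second condition, and levels were compared between genes within a library and between libraries.

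Class I molecules show peptides made inside the cell, and nearly every nucleated cell, T cells included, carries them. A heavy chain such as the products of H2-K1 and H2-D1 pairs with beta-2 microglobulin, encoded by B2m, and is loaded with peptides that the TAP transporter moves into the endoplasmic reticulum. Class II molecules are made of an alpha and a beta chain, escorted by the invariant chain Cd74, and in mice they are the property of B cells, dendritic cells, macrophages and thymic epithelium rather than of T cells. Cd79a encodes a signalling chain of the B-cell receptor and Ighm the constant region of the mu heavy chain.

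Totals were 1785970 to 2271993 counts per library, each count a read pair, and 13557 to 14344 genes had at least 1 count. Of 50600 genes, 8189 had exons that overlap a gene on the other strand. Only 7.53% (95% Wilson interval 7.50 to 7.57), 6.88%, 5.48% and 6.67% of the counts in replicates 1 to 4 lay in the genes without such an overlap, to which 9 of the 10 genes belong; Tap1 is the exception. A count here is therefore what was assigned to a gene's row at the strand setting used, which is not a measure of how abundant the gene's own transcript was. Whether that setting matches the library was not tested. Levels are given as TPM, the length-scaled share of a library's counts, computed from counts and exon length over all genes. Replicate 4 stood apart. There 2 ribosomal RNA rows held 15.9% of the counts, against 3.25% to 5.02% in the others. The chi-square per degree of freedom between libraries was 19.9 to 24.9 for its 3 pairs and 2.45 to 3.95 for the rest. It included these 2 rows and was not computed without them, so it does not show how far replicate 4 differed in other genes.

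The promoters were read first, since class I and class II genes are known to share an upstream element, made of the S, X and Y boxes, on which the CIITA and NLRC5 coactivators act. Windows of 140 bases, from 150 to 11 bases before the RefSeq start (GRCm38.p6), were searched on both strands for TGANG followed by ATTGG at a spacing of 15 to 25 bases, letters that belong to the X2 and Y boxes and that were chosen after these sequences were seen. Of the 10 genes, 7 were in the table of promoters. The pair of motifs was present in 5 of them, H2-K1, H2-D1, B2m, H2-Aa and H2-Eb1, and was not found in the windows of Tap1 and Cd79a. Over all 27025 promoters, 1.66% held the pair, 65.5% held TGANG and 24.4% held ATTGG. The 4 windows that lie outside the annotated exons of their own gene are printed with the paired motifs in capitals, 2 of class I genes and 2 of class II genes, as the places where these letters lie. The match supports nothing beyond these windows, since the motif was picked from them and 3 of the 10 genes had no window.
H2-K1: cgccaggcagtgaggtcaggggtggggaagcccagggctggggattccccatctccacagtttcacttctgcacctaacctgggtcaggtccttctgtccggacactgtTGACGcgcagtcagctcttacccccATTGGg
B2m: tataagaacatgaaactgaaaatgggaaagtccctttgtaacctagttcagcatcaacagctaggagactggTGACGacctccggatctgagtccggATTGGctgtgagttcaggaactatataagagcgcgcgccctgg
H2-Aa: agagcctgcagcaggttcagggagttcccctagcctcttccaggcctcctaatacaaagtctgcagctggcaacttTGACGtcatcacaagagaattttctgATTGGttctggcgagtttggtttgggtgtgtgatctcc
H2-Eb1: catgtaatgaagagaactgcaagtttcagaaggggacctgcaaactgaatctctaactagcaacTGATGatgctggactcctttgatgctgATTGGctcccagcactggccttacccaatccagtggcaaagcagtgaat

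These windows lie at chr17:34000358-34000497 on the minus strand for H2-K1, chr2:122147537-122147676 on the plus strand for B2m, chr17:34287834-34287973 on the minus strand for H2-Aa and chr17:34305717-34305856 on the plus strand for H2-Eb1. The spacing between the motifs was 20 bases in H2-K1, 20 in B2m, 21 in H2-Aa, 22 in H2-Eb1 and 23 in H2-D1. A match of letters is a description and shows no binding. The gene with no count at all in these libraries, H2-Aa, held the same pair of motifs as H2-K1 and B2m.

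The class I set had the highest levels of the 3. H2-K1, which encodes the K heavy chain (ENSMUSG00000061232.15, chr17:33996017-34000333, mm10, minus strand), had 109, 82, 74 and 76 counts in replicates 1 to 4. Its TPM were 27.6, 22.1, 19.3 and 25.9, or 23.7 ± 3.74 (SD, n = 4). The 4 libraries lay close together, with replicate 1 highest. Scaled to the counts in the genes without an overlap (as CPM of that subset), H2-K1 stood at 637, 564, 612 and 638, a coefficient of variation of 5.65% against 15.8% in TPM.

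H2-D1, the gene of the D heavy chain (chr17:35262730-35267499, plus strand), had 94, 39, 40 and 40 counts. Its TPM were 24.1, 10.7, 10.5 and 13.8 (14.8 ± 6.39, SD, n = 4). Replicate 1 stood above the other 3, which had nearly the same count. In edgeR's goodness-of-fit test across libraries the unadjusted p of H2-D1 was 0.0132 and the Benjamini-Hochberg adjusted p 0.572. Without replicate 1, where the gene stood at 39 to 40 counts, the unadjusted p was 0.600. The heavy chain genes share part of their sequence. Of the 50-base words in their transcripts, 9.63% for H2-K1 and 12.8% for H2-D1 also occur in transcripts of other genes. For H2-D1 these include unrelated genes such as Sirt1. The words that H2-K1 and H2-D1 have in common were 4.08% of those of H2-K1 and 5.44% of those of H2-D1. Where reads from shared words were assigned is uncertain.

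B2m (chr2:122147686-122153083, plus strand) had the highest level of the 10 genes by mean TPM. Its counts were 51, 38, 26 and 23 and its TPM 39.2, 31.1, 20.6 and 23.7, or 28.6 ± 8.30 (SD, n = 4). Replicates 1 and 2 were the higher ones in TPM. It shares no 50-base word with another gene. As CPM of the genes without an overlap it stood at 298, 261, 215 and 193.

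Tap1, one chain of the peptide transporter (chr17:34187553-34197225, plus strand), ran the other way, with its lowest count in replicate 1. It had 22, 47, 34 and 32 counts, and its TPM were 2.65, 6.04, 4.22 and 5.19 (4.53 ± 1.45, SD, n = 4). Its exons share 212 bp with Psmb9 on the other strand. With edgeR's filter on low counts and all 4 libraries, the class I genes were the members tested for variation between replicates. None of the 4 was called at an adjusted p under 0.05, against 0.454% of all 5064 genes tested (23 genes; 260 at an unadjusted p under 0.05), and the unadjusted p was 0.0980 for Tap1, 0.345 for B2m and 0.537 for H2-K1.

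**Figure D1:**
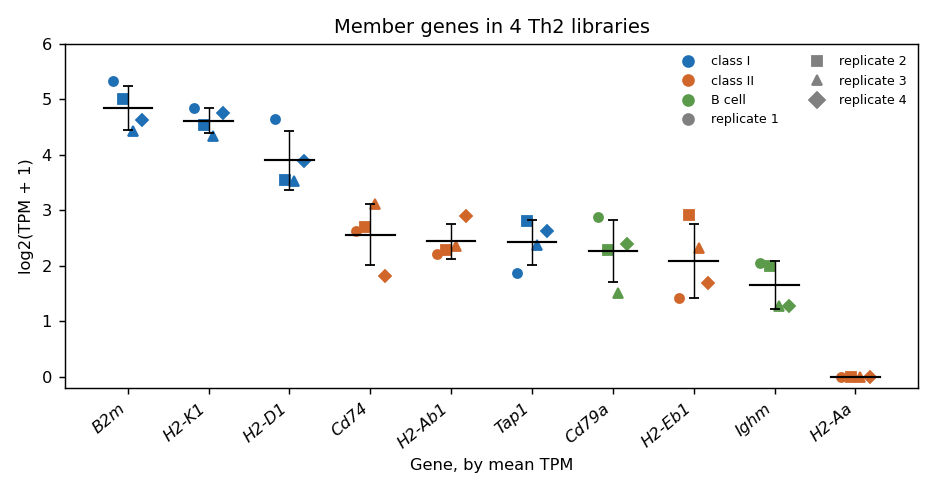
Levels of the 10 genes as log2(TPM + 1) in each of 4 Th2 libraries, ordered by mean TPM; colours give the class, marker shapes the replicate, and the horizontal line and bar the mean and SD of the log2 values. B2m, H2-K1 and H2-D1 stand highest, Tap1 lies among the class II and B-cell genes, and H2-Aa is at 0 in every library.

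Beyond the 4 members, the list of the class I pathway held 14 genes, and 11 of them had over 3 counts in every library. Of all 50600 genes 14.8% did so, as did 26.5% of protein-coding genes. The median of the list by mean TPM was 13.2, beside 0.115 over protein-coding genes. Calr, a chaperone of newly made heavy chains, was the highest, with 341, 278, 217 and 288 counts, and Hspa5, a general chaperone of the endoplasmic reticulum, had 218, 154, 108 and 154. Both were lowest in replicate 3. Neither has an exon overlap on the other strand, and of the 7 pathway genes without one, 5 had over 3 counts in every library, against 19.0% of protein-coding genes without an overlap.

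The immunoproteasome subunits and transporter genes sit beside each other on chromosome 17, and their rows are set against rows on the other strand. Psmb9, a catalytic subunit, had 237, 205, 292 and 206 counts (46.6 TPM ± 6.72, SD, n = 4), above Tap1 in each library. Psmb8, another catalytic subunit, had 94, 97, 74 and 65 counts, while Gm20496, an antisense gene overlapping it by 186 bp, had 8031, 7891, 8482 and 6079. Tap2, the partner chain of Tap1, had 19, 12, 21 and 21 counts. It shares 165 bp with Gm20496 and 533 bp with Gm15821, which had 2839, 2547, 2812 and 1934. Psme1, a proteasome activator, had 120, 89, 101 and 66 counts, with 533, 520, 601 and 479 in Emc9, which shares 14 bp with it.

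Counting each pair from the class I pathway or class I-like gene, there were 12 such pairs, with Tap1 and Psmb9 entered from either side. The row on the other strand was denser in counts per kb of exon in all 4 libraries in 10 of them, and the listed gene in 2. Those 2 were Psmb9 over Tap1 and Pdia3, a thiol oxidoreductase of the loading complex, over Catsper2. H2-K1, H2-D1 and B2m have no such partner. The nearest gene on the other strand of B2m is Patl2, which had 2, 0, 0 and 0 counts. The spans of these genes overlap, but their exons share no base.

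**Figure D2:**
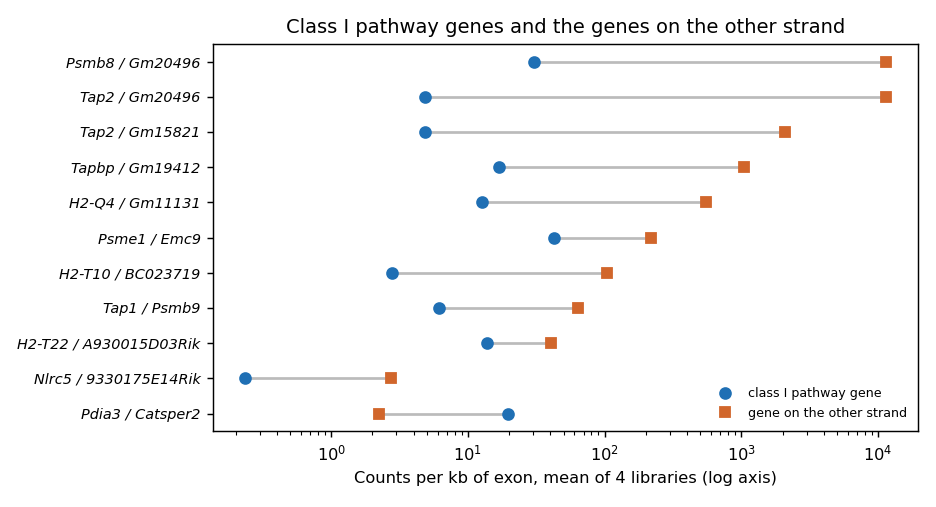
Counts per kb of exon (log axis, mean of 4 libraries) for class I pathway and class I-like genes, as circles, and for the gene opposite each one, as squares; the Tap1 and Psmb9 pair is drawn once. The square lies to the right of the circle for every pair except Pdia3 and Catsper2.

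The class I-like genes, which are close relatives of the heavy chains with more limited expression, held 5 of 19 genes over 3 counts in every library and 8 at 0 in all. These shares are close to those of all protein-coding genes, 26.5% and 42.7%. At 0 were, among others, H2-Q1, H2-T3, H2-M2 and Mr1, which presents vitamin B metabolites. H2-T24 (chr17:36005695-36020560) was far above the rest, with 472, 526, 544 and 385 counts, or 160 TPM ± 12.7 (SD, n = 4). That is above the mean of every class I member. It has no exon overlap on the other strand. H2-T23, which encodes the mouse Qa-1 molecule that NK-cell receptors recognise, had 31, 12, 21 and 16 counts. H2-T22, a ligand of some gamma-delta T cells, had 51, 46, 54 and 37, beside 64, 41, 44 and 30 in A930015D03Rik on the other strand. H2-Q4 had 47, 32, 30 and 23 counts against 1998, 1721, 1915 and 1279 in Gm11131, and H2-T10 had 9, 8, 13 and 8 against 130, 89, 101 and 87 in BC023719.

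The class II genes lay below B2m, H2-K1 and H2-D1 by mean TPM, and the chains were not counted alike. All but H2-Aa were above 2.79, the median mean TPM of protein-coding genes without an overlap and over 3 counts in every library. H2-Aa, the alpha chain of I-A (chr17:34282744-34287827, minus strand), had 0 counts throughout. A count of 0 was taken to allow up to 3 counts in each library, or 1.06, 1.13, 1.09 and 1.42 TPM. This is a fixed floor, and the exact Poisson interval at 0 counts reaches 3.69. H2-Ab1, the beta chain that pairs with it (chr17:34263209-34269418, plus strand), had 9, 9, 10 and 12 counts. Its TPM were 3.63, 3.87, 4.15 and 6.51 (4.54 ± 1.33, SD, n = 4), above the limit for H2-Aa in each library. The exact Poisson intervals of H2-Ab1, 4.12 to 17.1 counts in replicate 1 and 4.80 to 18.4 in replicate 3, cover counting error only. No gene on the other strand overlaps either of them.

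H2-Eb1, the beta chain of I-E (chr17:34305877-34316199, plus strand), had 3, 11, 7 and 3 counts, or 1.67, 6.54, 4.02 and 2.25 TPM (3.62 ± 2.19, SD, n = 4). Replicates 2 and 3 were the higher ones. Strain C57BL/6 lacks a working I-E alpha chain, so this beta chain has no partner there. Cd74 (chr18:60803848-60812646, plus strand) had 11, 11, 16 and 4 counts, or 5.16, 5.49, 7.71 and 2.52 TPM (5.22 ± 2.13, SD, n = 4). It was highest in replicate 3 and lowest in replicate 4. As CPM of the genes without an overlap the spread of Cd74 was wider, from 33.6 in replicate 4 to 132 in replicate 3. Its exons share 12 bp with Mir5107 on the same strand, which had 1, 0, 0 and 0 counts.

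Of the class II genes, H2-Ab1 and Cd74 had over 3 counts in every library, so with the 4 class I genes and Cd79a the total was 7 of 10. The share was 14.8% over all 50600 genes and 26.5% over protein-coding genes. The median of the 10 member genes by mean TPM was 4.53. The 3 and 11 counts of H2-Eb1 in replicates 1 and 2 have exact Poisson intervals of 0.619 to 8.77 and 5.49 to 19.7, which overlap, and cover counting error only. The class II and B-cell genes were below edgeR's filter in the test on 4 libraries. With no filter, the 5 of them with counts had unadjusted p from 0.190 (H2-Eb1) to 0.631 (H2-Ab1) and none was called, with adjusted p of 0.808 or above.

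Of the 16 other genes of the class II pathway, 5 had over 3 counts in every library and 4 had 0 in all. Beside the 26.5% of protein-coding genes over 3 counts, and the 42.7% at 0, the list does not stand out as low. Ciita, the master coactivator of class II genes, had 1, 2, 0 and 2 counts. H2-DMa, part of the peptide exchange factor, had 1, 0, 2 and 1, and its partners H2-DMb1 and H2-DMb2 had 0 in all, as did H2-Ob and H2-Eb2. Ctss, the protease that trims the invariant chain, had 4, 0, 0 and 1. Cd83, which keeps class II at the surface and is also made by activated lymphocytes, had 8, 10, 7 and 13 counts, and Rfxap, a subunit of the factor that binds the X box, had 14, 6, 9 and 11. These 2 were the genes over 3 counts among the 10 of the list without an overlap, a share near the 19.0% of protein-coding genes without one.

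The other 3 have overlaps. Rfxank, another subunit of that factor, had 1269, 1173, 1191 and 774 counts (199 TPM ± 17.6, SD, n = 4) and shares 1341 bp with Nr2c2ap on the other strand, which had 484, 511, 538 and 364. Ifi30, a lysosomal thiol reductase, had 13, 16, 14 and 12 counts beside 949, 865, 968 and 679 in 6330537M06Rik. March1, a ubiquitin ligase that removes class II from the surface, had 15, 16, 15 and 14 counts, and Gm15354 on the other strand had 0 in all libraries. Rfxank, the 1 class II pathway gene with a high level, thus lies in a pair with counts on both strands.

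The B-cell pair was counted in every library, at 3 to 14 counts. Cd79a (chr7:24897381-24902197, plus strand) had 14, 8, 4 and 7 counts, or 6.35, 3.87, 1.87 and 4.26 TPM (4.09 ± 1.84, SD, n = 4). Ighm (chr12:113418558-113422730, minus strand) had 9, 8, 4 and 3, or 3.15, 2.99, 1.44 and 1.41 TPM (2.25 ± 0.951, SD, n = 4). Replicate 1 was the highest for both genes. Neither has an overlap on the other strand. Of the 50-base words of Cd79a, 8.31% also occur in Gm32220, and Ighm shares none.

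Several genes that define B cells alongside this pair were at 0. Cd79b, the other signalling chain of the B-cell receptor, had 0 counts in all 4 libraries, as did Ms4a1 (the CD20 antigen), the transcription factors Pax5 and Ebf1, and the immunoglobulin constant genes Ighd and Igkc. Cd22, an inhibitory receptor of B cells, had 0, 1, 1 and 0 counts. The limit that 0 counts allow, 1.32 to 1.68 CPM (counts scaled to a common library total), covers counting error only. It applies to what was assigned to a gene's row at the strand setting used, where a low level cannot be told from none. A row's count is not a measure of the gene's own transcript, so 0 counts set no limit on how abundant that transcript was.

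The wider list held 35 measured B-cell genes besides the pair. Of these, 23 had 0 counts in all 4 libraries and 3 had over 3 counts in every library, beside 42.7% at 0 and 26.5% over 3 counts among protein-coding genes. Immunoglobulin constant genes such as Ighd, Igkc and Igha are in the list and at 0. They are not typed as protein-coding, so the list and the background differ in gene type. The share at 0 without them was not computed. Cd72, a receptor of B cells, had 1196, 1031, 1248 and 937 counts and shares 1423 bp with Tesk1 on the other strand, a kinase gene with 21, 25, 19 and 21. Vpreb3, a chaperone of the immunoglobulin light chain, had 20, 18, 15 and 9, and Pou2f2, the factor Oct-2, which is made in B cells and other lymphocytes, had 91, 74, 64 and 57. Vpreb3 and Pou2f2 have no overlap on the other strand. Over the 29 listed genes without one, the summed level was 25.5, 24.2, 18.0 and 18.7 TPM.

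Markers of other cells that carry class II were counted too. Of protein-coding genes without an overlap, 49.7% were at 0 in all libraries. Of 13 dendritic-cell genes, none with an overlap, 1 had over 3 counts in every library, Irf8, a transcription factor, with 4, 4, 6 and 6, and 5 were at 0 in all, Itgax, Clec9a and Siglech among them. Their summed level was 6.98, 6.37, 2.01 and 6.87 TPM. Of the 11 macrophage and monocyte genes without an overlap, none had over 3 counts in every library and 8 were at 0, among them Adgre1, Cd14 and Fcgr1. Their summed level was 1.05, 2.74, 6.78 and 2.09 TPM, which rests on 2, 4, 9 and 3 counts over all 11 genes. Csf1r, a macrophage growth factor receptor, had 1409, 1363, 1457 and 1066 counts in a row that overlaps another gene on the other strand. The counts of that other gene were not compared with those of Csf1r. The part of dendritic cells, macrophages and monocytes in the class II and B-cell counts was not tested. In bulk samples fewer cells of a type and less RNA per cell cannot be told apart.

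T-cell genes were counted throughout. All 15 listed T-cell genes without an overlap had over 3 counts in every library, against 19.0% of protein-coding genes without one. The summed level of the 15 was 172, 149, 101 and 149 TPM. Among them Cd4, the coreceptor that names these cells, had 72, 59, 54 and 68 counts, and Cd6, an adhesion receptor, 153, 137, 128 and 140. Of 15 genes of the interferon response, which raises class I in many cells, 4 had over 3 counts in every library. That share is close to the 26.5% of protein-coding genes, so the list does not stand out. The highest interferon response gene by TPM was Socs1, a feedback inhibitor of cytokine signalling, with 4, 8, 5 and 9 counts.

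**Figure D3:**
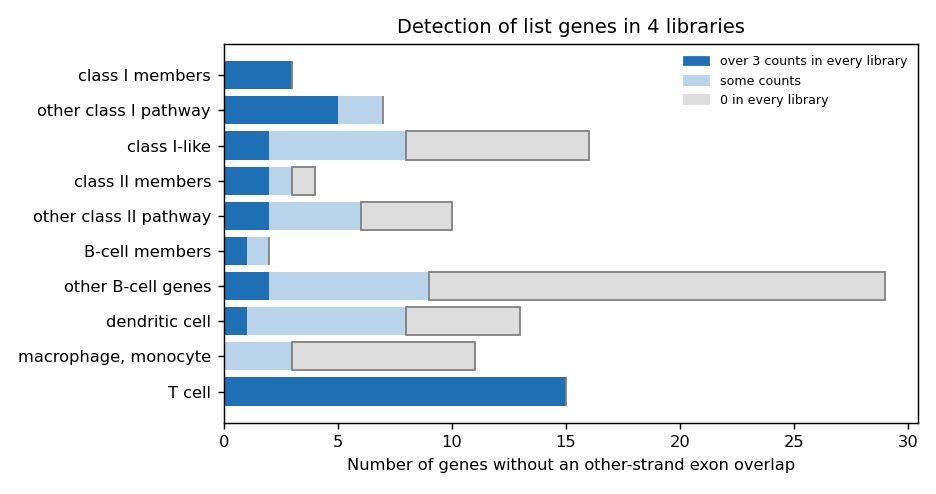
Number of genes with no other-strand overlap in each gene set, split into those over 3 counts in every library, those with some counts, and those at 0 in all 4 libraries. All 15 T-cell genes are over 3 counts, whereas 20 of the 29 other B-cell genes and 8 of the 11 macrophage and monocyte genes are at 0. The B-cell genes at 0 include immunoglobulin constant genes, which are not typed as protein-coding.

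Summed by class, the 4 class I genes reached 93.5, 69.9, 54.6 and 68.6 TPM in replicates 1 to 4 (71.7 ± 16.2, SD, n = 4). The 4 class II genes summed to 10.5, 15.9, 15.9 and 11.3 TPM (13.4 ± 2.92), and the 2 B-cell genes to 9.50, 6.85, 3.31 and 5.68 (6.34 ± 2.58). The class I sum was above the other sums in all 4 libraries, with no overlap of the ranges. The log2 ratio of class I to class II, on summed TPM plus 1, was 3.04, 2.07, 1.72 and 2.50 (2.33 ± 0.572). Without the added 1, the sums stood at ratios of 8.94, 4.40, 3.44 and 6.08. Class I to B cell was 3.17, 3.18, 3.69 and 3.38 (3.35 ± 0.245), and without the added 1 the ratios were 9.84, 10.2, 16.5 and 12.1. Without replicate 4 the mean log2 ratios were 2.28 and 3.35. The B-cell sum holds 2 genes against 4 of class I, which raises the class I to B-cell ratio. By the median over members, with all 4 libraries, that log2 ratio was 2.28.

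The class II to B-cell ratio moved most between libraries. It was 0.13, 1.11, 1.97 and 0.88 on the log2 scale (1.02 ± 0.759), lowest in replicate 1 and highest in replicate 3. The sums hold 4 class II genes and 2 B-cell genes, so the ratio is raised by gene number. It does not show a higher level per gene. Replicate 3 had the lowest B-cell and class I sums. It also had the lowest share of counts in genes without an overlap, 5.48%, and replicate 1, with the highest class I and B-cell sums, had the highest share, 7.53%. The class II sum did not follow that order, since replicates 2 and 3 were its highest. The part of this share in the sums was not tested.

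**Figure D4:**
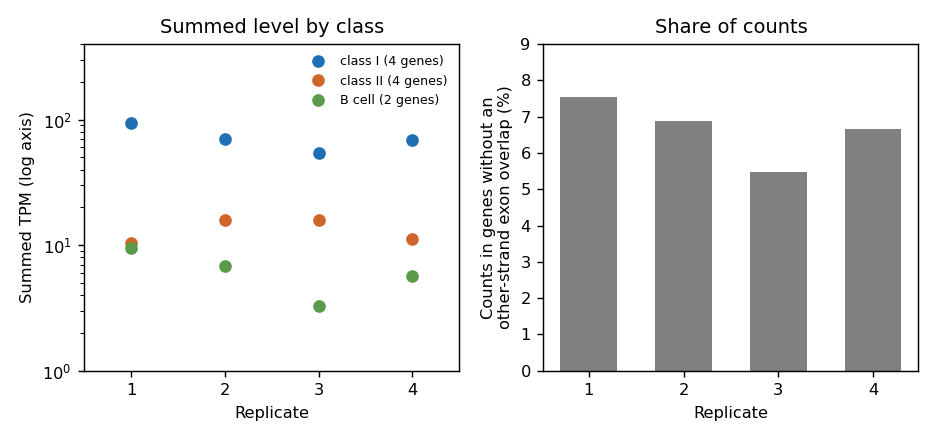
Left, summed TPM of the class I, class II and B-cell genes in replicates 1 to 4 (log axis); right, percent of counts in genes with no other-strand overlap, as bars from 0. The class I sum is above the other sums in each library, and the lowest share of counts, 5.48%, is in replicate 3.

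In order of mean TPM the genes ran B2m, H2-K1, H2-D1, Cd74, H2-Ab1, Tap1, Cd79a, H2-Eb1, Ighm and H2-Aa. Each of the 9 neighbouring pairs was compared by the log2 ratio of TPM plus 1 within a library, with an exact two-sided sign-flip test that with 4 libraries cannot give a p below 0.13. In 3 pairs the ratio had the same sign in every library. H2-K1 was above H2-D1 by 0.71 ± 0.357 (SD, n = 4), H2-D1 above Cd74 by 1.34 ± 0.841, and Ighm above H2-Aa by 1.65 ± 0.431, each with exact p = 0.13, the smallest possible, and an adjusted p of 0.375. H2-Aa is at 0, so the last value depends on the added 1.

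The other 6 neighbours did not differ beyond their spread. B2m was above H2-K1 in 3 of 4 libraries, by 0.23 ± 0.299 (exact p = 0.375, adjusted 0.675), and H2-Eb1 above Ighm by 0.44 ± 0.763. Between Cd74 and H2-Ab1 the difference was 0.12 ± 0.827, between H2-Ab1 and Tap1 0.02 ± 0.399, between Tap1 and Cd79a 0.16 ± 0.818, and between Cd79a and H2-Eb1 0.18 ± 1.09. Tap1, a class I pathway gene, thus differed from its class II and B-cell neighbours by less than the spread between libraries in TPM. This holds per length alone, as Tap1 has 5476 bp of exon. In CPM without length, Tap1 was above Cd79a by a log2 ratio of 1.84 and H2-Ab1 over Tap1 was -1.53, each with the smallest exact p, 0.13. In CPM B2m fell below H2-K1, with a log2 ratio of -1.30, since B2m has the shortest exons of the 10 (860 bp).

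Among the 3215 protein-coding genes without an overlap that had over 3 counts in every library, B2m stood at the 94.9th percentile by TPM (mean of 4 libraries), H2-K1 at the 93.7th and H2-D1 at the 88.8th. Among all 5777 protein-coding genes over 3 counts in every library, those with an overlap included, they stood at 83.9, 82.1 and 75.8. In the first ranking they lay in the range of the T-cell genes ranked in the same way, where Cd6 was at 95.3, Cd5, a receptor that dampens T-cell receptor signals, at 89.5, Cd4 at 86.5 and Cd28, a costimulatory receptor, at 13.6. H2-K1 ranged from 93.1 to 94.1 over the libraries. Cd74 was at 66.6, H2-Ab1 at 65.6, Cd79a at 60.8, H2-Eb1 at 53.3 and Ighm at 40.2, and Tap1, which has an overlap, stood at 64.5. The T-cell receptor chain Cd3g, at 64.4, fell among them. The range of the T-cell genes holds these members too, and only H2-Aa lay outside it. It therefore does not set B2m, H2-K1 and H2-D1 apart. Cd74 moved from 44.1 in replicate 4 to 84.7 in replicate 3, and H2-Eb1 from 27.2 in replicate 1 to 75.4 in replicate 2.

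**Figure D5:**
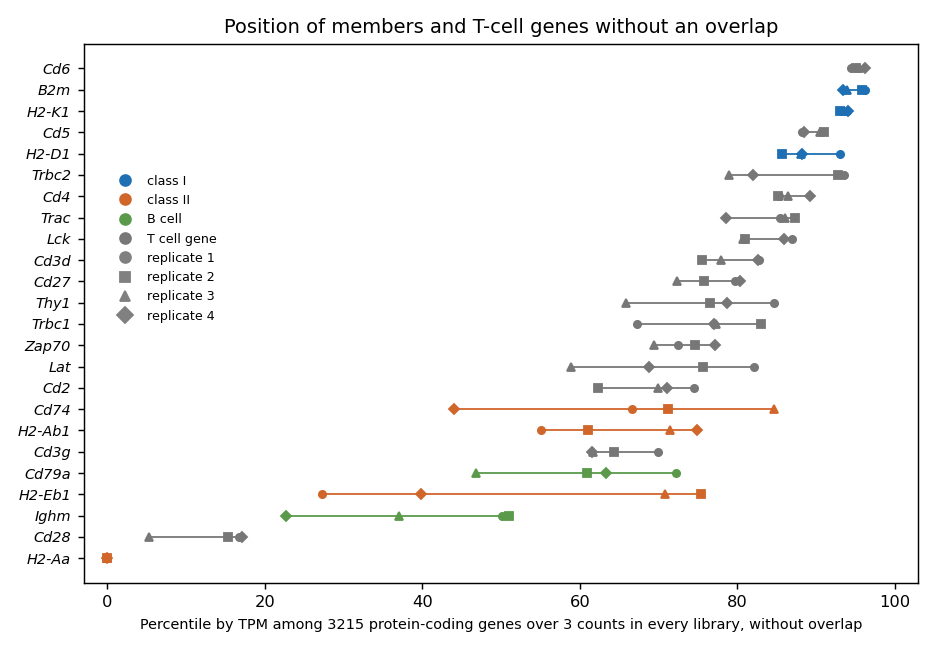
Percentile by TPM of the 10 genes except Tap1, which is not drawn, and of the T-cell genes without an overlap. The reference is 3215 protein-coding genes over 3 counts in every library that have no other-strand overlap. Each marker is a library and each line spans the 4. B2m, H2-K1 and H2-D1 lie at 85.7 or above in every library, and Cd74 and H2-Eb1 span the widest ranges.

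The genes most like each member were taken as the 2 nearest by Euclidean distance of log2(TPM + 1) over the 4 libraries, among the same 3215 genes. They were picked on these same values, so a pattern over replicates shared with a member follows from the choice. The nearest to H2-K1 were Hnrnpm (distance 0.157), an RNA-binding protein gene, and Gpatch4 (0.187). B2m was nearest to Slc25a5 (0.385), a mitochondrial ADP/ATP carrier, and Pabpc1 (0.389), the poly(A)-binding protein. The nearest to H2-D1 was the splicing factor gene Rbm17 (0.374), which had 20.6, 9.95, 8.76 and 12.2 TPM and so shared its high replicate 1, followed by Cct4 (0.484), a chaperonin subunit.

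Tap1 was nearest to 4933430I17Rik (0.236) and the mitotic kinase gene Aurka (0.251), which were likewise lowest in replicate 1. Cd74 was nearest to B3galt6 (0.350) and Cirbp (0.390), and H2-Ab1 to Herpud1 (0.131) and Hspa12b (0.212). Cd79a was nearest to the cytokine gene Lif (0.191), with 5.77, 4.21, 1.88 and 4.69 TPM, and to Rap1a (0.275), a small GTPase gene. A distance over 4 libraries, at these counts, is a description of level and shape and includes counting error.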

How the data were processed

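RNA was measured in 4 Th2 libraries. The label of the assay says total RNA, but the library protocol linked to it is for polyadenylated RNA. Per the file headers, the deposited values are raw counts, each a read pair, made by featureCounts 1.4.6-p4 at strand setting 1. Both ends had to map, and exons of GENCODE vM13 (mm10) were joined by gene. They also give exon length in bp. The name of the alignment file points to STAR, whose version is not given in the sources used here. Gene names, types and the transcripts for the 50-base words came from GENCODE vM21, where 224 of the 50600 genes were not found.

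The members, gene lists and alternatives were chosen with earlier results of these data known. Named are all members, genes that overlap them, up to 5 of the highest members over 3 counts of each list, and 2 like genes per member. List genes at or near 0, H2-T24's rank, Tap2, Pdia3, the nearest genes on the other strand and the partners of list genes were chosen after their values were seen. One listed B-cell symbol, Faim3, did not match, and 1 listed gene is not reported here by name.

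TPM and CPM were computed in Python 3.11.15 with numpy 2.4.6 and pandas 2.3.3, exact tests in SciPy 1.17.1 and figures in Matplotlib 3.10.9. The test of variation among libraries ran in edgeR 4.0.16 (R 4.3.3) with a negative binomial model that has an intercept alone, by its goodness of fit, using trended dispersion, TMM factors, filterByExpr and Benjamini-Hochberg adjustment at 0.05, which was tested on simulated data. DESeq2 1.42.0 gave size factors as an alternative. Order was tested with a pseudocount of 1. With totals of 1785970 to 2271993 counts, a count of 0 was taken to allow up to 3 counts, a fixed floor. The exact Poisson interval at 0 counts reaches 3.69. Intervals (95%, Wilson or exact Poisson) and floors cover counting error only, since no molecular identifiers tell separate molecules from copies. Promoter sequences are from RefSeq (GRCm38.p6), with H2-Ab1, Cd74 and Ighm not matched. Replicate pairs differed by more than sampling noise (chi-square per degree of freedom 2.45 to 3.95 among replicates 1 to 3, and 19.9 to 24.9 with replicate 4). The ribosomal RNA rows were included in that comparison.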

Additional observations from a re-analysis of the deposited data

How the results depend on the processing

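The class I to class II ratio of summed TPM stayed within 1 SD of its value under every alternative run, and at 2.10 to 2.54 with each replicate left out. Class I to B cell, 3.24 to 3.42 with a replicate left out, was 2.28 by the median over members, 3.74 per count without length and 3.03 without H2-D1, an alternative added after the data were seen. Also added were scaling to the counts in genes without an overlap and setting each class II and B-cell gene to at least 3 counts. Over 3 counts in every library held for 7 of the 10 genes, beside 26.5% of protein-coding genes, and at least 10 counts for 4. The number of neighbouring pairs with 1 sign in every library rose from 3 to 6 without length, and was 3 to 5 with a replicate left out. Without length 4 ratios turned, B2m to H2-K1 (-1.30), Cd74 to H2-Ab1 (-0.050), H2-Ab1 to Tap1 (-1.53) and H2-Eb1 to Ighm (-0.038). With a replicate left out, Cd74 to H2-Ab1 ranged from -0.090 (without replicate 3) to 0.53, H2-Ab1 to Tap1 from -0.091 (without replicate 1; -0.070 without replicate 4) to 0.20, Tap1 to Cd79a from -0.080 (without replicate 3) to 0.54, and Cd79a to H2-Eb1 from -0.25 (without replicate 1) to 0.51; the cause was not tested. The genes called variable were 23 of 5064, 15 with no filter on low counts, 32 with a common dispersion, and 7 (without replicate 4), 12 (without replicate 3) to 20 with a replicate left out; no class I member was among them under these settings. Depth limits all 6 class II and B-cell genes, which had at most 16 counts in a library. No paired analysis was possible because there is 1 group.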
